A study of Mus musculus with 10 samples.

Results

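The suppressor molecules of regulatory T cells (Tregs) described here are 6 genes, chosen by gene symbol among 19938 genes with a probe set of a single symbol. They are the cytokine Il10, the cytokine subunit Ebi3, the secreted protein Fgl2, the ectoenzymes Entpd1 (CD39) and Nt5e (CD73), and Lrrc32 (GARP), the surface anchor of latent TGF-beta. All 6 were measured, each by 1 probe set that named no other gene, so no choice between probe sets arose. No filter on low values was applied.

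Tregs hold back other immune cells by several routes, and these genes stand for 4 of them. IL-10 signals through a receptor made of Il10ra and Il10rb and lowers inflammatory gene expression in many cell types. Ebi3 pairs with Il12a in IL-35 and with the p28 chain, encoded by Il27, in IL-27. Fgl2 belongs to the fibrinogen family and acts, when secreted, through inhibitory Fc receptors. CD39 turns extracellular ATP and ADP into AMP, CD73 turns AMP into adenosine, and adenosine dampens T cell activation. GARP holds latent TGF-beta at the Treg surface, from which integrins such as the alpha v beta 8 pair (Itgav and Itgb8) release it.

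The cells came from the spleen of female C57BL/6 mice of 9 to 14 weeks and were sorted as CD4+ cells with a red fluorescent protein reporter at Foxp3, which all groups share. FR1 was CD62Lhi CD69- Klrg1- (2 arrays), FR2 was CD62Llo CD69- Klrg1- (2 arrays), FR3 Klrg1- was CD62Llo CD69+ Klrg1- (4 arrays) and FR3 Klrg1+ was CD62Llo CD69+ Klrg1+ (1 array). CD62L is a lymph node homing receptor, CD69 an early activation marker and Klrg1 a receptor of differentiated lymphocytes. The labels call arrays of a group biological replicates without saying whether each came from 1 mouse or a pool. The p-values therefore rest on the spread between these samples, moderated over all genes. The number of arrays limits the precision.

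The labels name no batch, but the arrays fell into 2 sets, within which they correlated at 0.972 to 0.992, against 0.901 to 0.921 between the sets. All FR1 and FR2 arrays shared a set with FR3 Klrg1- replicates 1 and 2, and FR3 Klrg1+ shared the other with FR3 Klrg1- replicates 3 and 4. Changes are therefore given within a set, from a limma fit over the 9 grouped arrays with the array set as a term. In this fit the spread behind each SE and p-value is drawn in part from all genes (4 residual and 10.6 prior degrees of freedom). A further array was titled FR3 with the marker text of FR1 and entered no comparison. It stood at 12.41 for Klrg1 (log2), against its Klrg1- label. At the Klrg1 gate the Klrg1 transcript was at 12.33 in FR3 Klrg1+ against 7.37 ± 0.14 in FR3 Klrg1- replicates 3 and 4 (SD, n = 2). It also differed among groups gated Klrg1-. It was higher in FR2 than in FR1 by 0.90 ± 0.19 (log2, SE, adjusted p = 0.014, limma). In FR3 Klrg1- it was higher than in FR1 by 1.27 ± 0.19 (adjusted p = 0.000395, limma). The Cd69 transcript did not follow the CD69 gate (0.07 ± 0.18 on the log2 scale, SE, FR3 Klrg1- against FR2, adjusted p = 0.918, limma). The mean of 8 T cell markers was between 10.72 and 11.31 on every array, and the mean of each of 10 lists of markers of other cell types was between 4.27 and 6.22.

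At the CD62L gate, 5 of the 6 genes, Il10, Ebi3, Fgl2, Entpd1 and Nt5e, were higher in FR2 than in FR1, against 1.96% of all genes called higher, 2.3% called lower and 4.26% called in either direction (limma, adjusted p under 0.05). At the CD69 gate, Il10, Ebi3 and Nt5e rose again, 3 of 6, against a background of 2.81% higher, 1.94% lower and 4.75% in all. At the Klrg1 gate, Il10, Ebi3 and Fgl2 were higher in FR3 Klrg1+ and Lrrc32 was lower, against 2.14% higher, 2.82% lower and 4.96% in all. From FR1 to FR3 Klrg1-, across the CD62L and CD69 gates together, 5 of 6 were higher, against 4.39% higher, 3.79% lower and 8.19% in all. The median log2 fold change of the 6 genes was 0.88, 0.53, 0.63 and 1.85 in these comparisons, in that order, and the median of all genes was 0.02, -0.00, 0.00 and 0.02. In bulk RNA of sorted cells, more cells that carry a transcript and more transcript per cell cannot be told apart.

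Groups whose arrays do not overlap are common with so few arrays. Every FR2 array was above every FR1 array for the same 5 genes, as for 25.4% of all genes, and below for none, against 23.1% of all genes. Every FR3 Klrg1- array of that set was above every FR2 array for Il10, Ebi3, Entpd1, Nt5e and Lrrc32 (24.7% of all genes, with 24.2% below), and above every FR1 array for the 5 genes other than Lrrc32 (25.3%, with 23.6% below). The FR3 Klrg1+ array was above both FR3 Klrg1- arrays of its set for Il10, Ebi3, Fgl2 and Entpd1 and below both for Nt5e and Lrrc32, as were 36.5% and 36.0% of all genes.

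**Figure D1:**
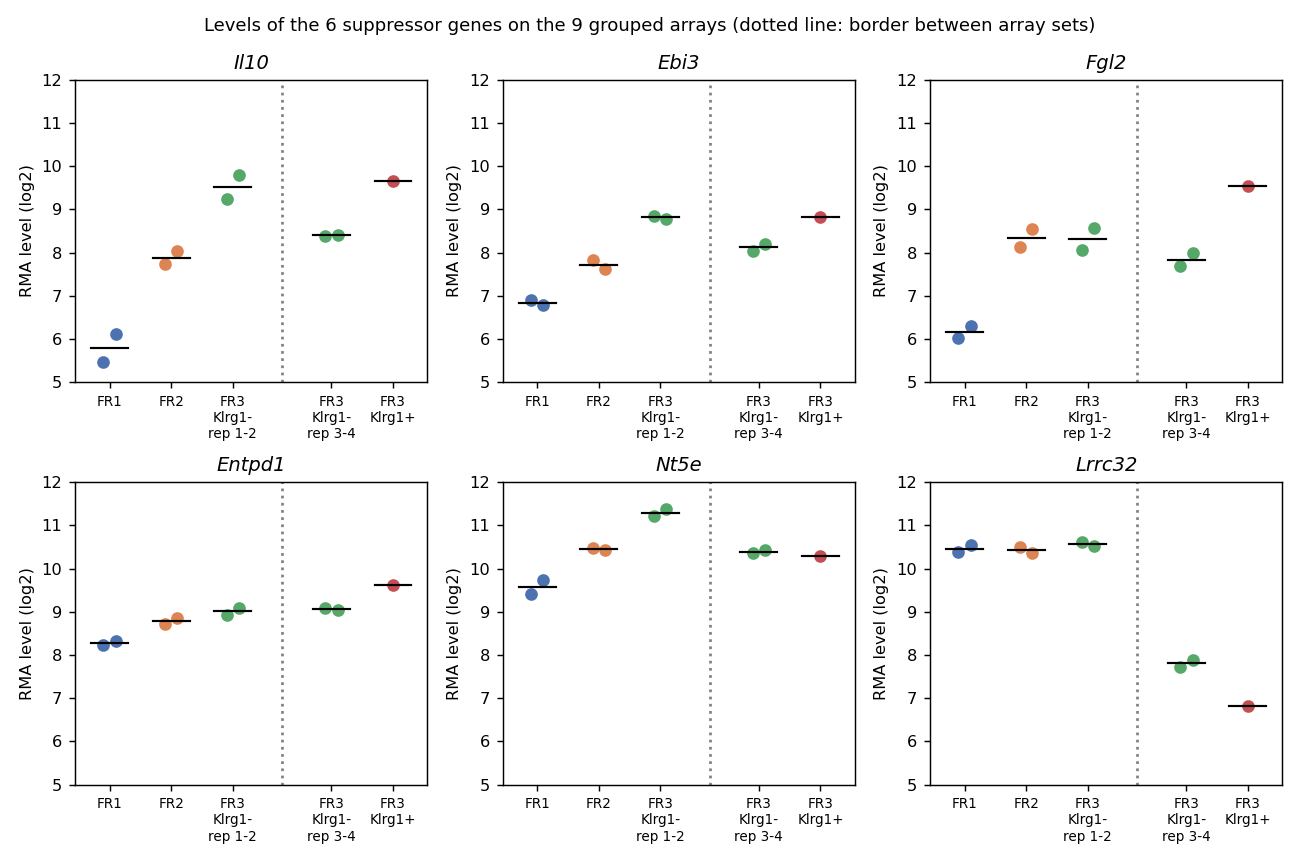
RMA level (log2, vertical axis) of each suppressor gene on the 9 grouped arrays, with a point per array and a bar at the mean of the group within its array set. Il10 climbs from 5.46 and 6.11 in FR1 to 9.25 and 9.80 in FR3 Klrg1- of the same set, while Lrrc32 is level in that set and lower on all 3 arrays of the other.

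The promoters of Ebi3 and Fgl2 are shown because both genes were higher in FR2 than in FR1, and Ebi3 but not Fgl2 passed again at the CD69 gate. Sequences are the 250 bases before the RefSeq start (GRCm38.p6), 5′ to 3′ on the plus strand, from chr17:55952373-55952622 for Ebi3 and chr5:21372423-21372672 for Fgl2. Of the 6 genes, 4 had an entry in the promoter table. Capitals mark matches, on either strand, to the AP-1 motif TGANTCA, the NFAT core GGAAA, the forkhead motif TGTTTAC or the RUNX motif TGTGGT.

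Ebi3: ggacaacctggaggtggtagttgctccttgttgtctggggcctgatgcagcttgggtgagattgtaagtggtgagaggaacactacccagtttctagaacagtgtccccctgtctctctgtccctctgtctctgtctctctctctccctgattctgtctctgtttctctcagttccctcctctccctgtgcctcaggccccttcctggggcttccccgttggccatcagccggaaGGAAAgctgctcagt

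Fgl2: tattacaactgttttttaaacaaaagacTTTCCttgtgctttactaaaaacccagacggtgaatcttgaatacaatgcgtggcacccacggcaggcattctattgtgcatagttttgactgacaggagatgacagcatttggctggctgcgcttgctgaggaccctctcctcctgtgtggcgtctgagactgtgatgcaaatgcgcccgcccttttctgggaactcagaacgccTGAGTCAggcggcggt

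The Fgl2 window held TGAGTCA, an AP-1 match, at bases 16 to 10 before the start, and TTTCC, the NFAT core on the other strand, at bases 222 to 218. The Ebi3 window held 1 NFAT core at bases 15 to 11. Of the windows that are not shown, that of Nt5e held none of these letters, and of the 2 starts of Entpd1 the second held NFAT cores at bases 233 to 229 and 130 to 126. Neither window held the forkhead or the RUNX letters, and no matches overlapped. Of 32851 windows of this length in the table, 6.75% held the AP-1 letters, 55.6% the NFAT core, 3.17% the forkhead motif and 14.0% the RUNX motif. These matches describe the letters in the window and show no binding.

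Il10, the suppressive cytokine, had the largest range of the 6 genes within the set of FR1, FR2 and FR3 Klrg1- replicates 1 and 2. Its level (log2, RMA) was 5.46 and 6.11 on the FR1 arrays, 7.73 and 8.04 on the FR2 arrays, and 9.25 and 9.80 on the FR3 Klrg1- arrays. No 2 groups overlapped, and the order was FR1, then FR2, then FR3 Klrg1-. FR2 was above FR1 by 2.10 ± 0.21 (log2 fold change, SE; 95% interval 1.66 to 2.54), a 4.29-fold difference that ranked 11 from the top of 19938 genes (adjusted p = 2.12e-05, limma). FR3 Klrg1- was above FR2 by a further 1.64 ± 0.21 (adjusted p = 0.000257, limma). The span from FR1 to FR3 Klrg1- was 3.74 ± 0.21, or 13.4-fold, which ranked 3 from the top of all genes (adjusted p = 2.83e-08, limma). The FR1 arrays lay at percentiles 34.6 and 49.1 of their probe sets. Whether Il10 was above background there was not tested, as no detection call was used.

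In the other array set Il10 stood at 8.39 and 8.41 on FR3 Klrg1- replicates 3 and 4 and at 9.66 on the FR3 Klrg1+ array. The Klrg1+ array was thus the higher, by 1.26 ± 0.25 (SE, n = 1 and 2, adjusted p = 0.011, limma), with the lone array assumed to vary like the others. FR3 Klrg1- itself differed between the sets, by 1.13 ± 0.21 more Il10 on replicates 1 and 2 (adjusted p = 0.000437, limma), where 38.3% of all genes were called different. Levels of the Klrg1+ array and of the FR1 and FR2 arrays were therefore not compared.

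Ebi3, the subunit shared by IL-27 and IL-35, followed the same order as Il10 over a smaller range. Its levels were 6.91 and 6.78 in FR1, 7.83 and 7.61 in FR2, and 8.85 and 8.78 in FR3 Klrg1-, with no overlap between groups. The gain was 0.87 ± 0.14 from FR1 to FR2 (adjusted p = 0.00141) and 1.10 ± 0.14 from FR2 to FR3 Klrg1- (adjusted p = 0.000212, limma). Together they came to 1.97 ± 0.14, or 3.92-fold (adjusted p = 2.11e-07, limma). In the other set Ebi3 was at 8.04 and 8.21 on FR3 Klrg1- and at 8.83 on FR3 Klrg1+, higher by 0.71 ± 0.17 (adjusted p = 0.0249, limma). That last call was lost when FR3 Klrg1- replicate 3 was left out (0.62, adjusted p = 0.0595, limma) and in a fit of the 3 arrays of that set alone (adjusted p = 0.0562).

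Fgl2, the secreted member of the fibrinogen family, rose at the CD62L and Klrg1 gates and did not pass at the CD69 gate. FR1 arrays read 6.03 and 6.31, FR2 arrays 8.12 and 8.54, and FR3 Klrg1- replicates 1 and 2 read 8.07 and 8.58. FR2 and FR3 Klrg1- overlapped, and both lay above FR1. The rise from FR1 to FR2 was 2.16 ± 0.19, or 4.48-fold, and ranked 8 from the top of all genes (adjusted p = 7.62e-06, limma). The FR1 arrays lay at percentiles 46.7 and 52.7 of their probe sets, and whether Fgl2 was above background there was not tested. FR3 Klrg1- differed from FR2 by -0.01 ± 0.19 (95% interval -0.41 to 0.40, adjusted p = 0.993, limma), and without single arrays of these groups it ran from -0.27 to 0.25.

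The change at the CD69 gate minus that at the CD62L gate was -2.17 ± 0.33 for Fgl2 (adjusted p = 0.00265, limma), 1 of the 6 genes past the threshold in this test, where 1.6% of all genes were called higher, 1.07% lower and 2.67% in all. Without FR2 replicate 2 this difference was -1.76 (adjusted p = 0.0583, limma). For Il10 the same difference was -0.46 ± 0.36, for Ebi3 0.22 ± 0.23, for Entpd1 -0.30 ± 0.22, for Nt5e -0.04 ± 0.24 and for Lrrc32 0.18 ± 0.23 (adjusted p from 0.603 to 0.973, limma). The 95% interval for Il10, -1.22 to 0.31, leaves room for steps of unequal size.

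On FR3 Klrg1- replicates 3 and 4, Fgl2 stood at 7.68 and 7.99, and on the FR3 Klrg1+ array at 9.53. This rise of 1.69 ± 0.23, or 3.23-fold, ranked 17 from the top of all genes (adjusted p = 0.000821, limma). Fgl2 is also made by macrophages. The mean of 14 macrophage and monocyte markers was 5.35 to 5.44 in FR1, 5.61 to 5.66 in FR2, 5.44 to 5.56 on FR3 Klrg1- replicates 1 and 2, 5.83 to 5.93 on FR3 Klrg1- replicates 3 and 4, and 5.48 in FR3 Klrg1+. At the CD62L gate the mean and Fgl2 were both higher in FR2, where 1 of the 14 markers rose and 0 fell (limma, 1 at an unadjusted p under 0.05). The median log2 fold change of the markers was 0.06 there, against 0.02 for all genes. The brightest marker, named after its value was seen, was Cd68 in FR1 (7.27) and Ccr2 in FR2 (8.93). The part of these markers in the rise of Fgl2 was not tested. At the Klrg1 gate 1 of these markers rose and 3 fell (limma, 10 at an unadjusted p under 0.05). Of all genes, 2.14% were called higher and 2.82% lower there. The median log2 fold change of the markers was -0.52, against 0.00 for all genes.

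The ectoenzymes Entpd1 and Nt5e both rose from FR1 to FR2, by different amounts. Nt5e, which makes adenosine from AMP, stood at 9.40 and 9.74 in FR1, 10.48 and 10.43 in FR2, and 11.22 and 11.37 in FR3 Klrg1-. The 3 groups did not overlap. Its gains were 0.88 ± 0.14 at the CD62L gate (adjusted p = 0.00187) and 0.84 ± 0.14 at the CD69 gate (adjusted p = 0.0024, limma). At the Klrg1 gate Nt5e was at 10.35 and 10.42 without Klrg1 and at 10.28 with it, a difference of -0.11 ± 0.17 (95% interval -0.48 to 0.26, adjusted p = 0.785, limma).

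Entpd1, which supplies AMP to CD73, had the smallest difference from FR1, in FR2 and in FR3 Klrg1- alike, among the 5 genes that were higher there. It read 8.22 and 8.32 in FR1, 8.72 and 8.86 in FR2, and 8.93 and 9.09 in FR3 Klrg1-. The groups did not overlap, but only the steps from FR1 passed: 0.52 ± 0.13 to FR2 (adjusted p = 0.0332) and 0.74 ± 0.13 to FR3 Klrg1- (adjusted p = 0.00142, limma). From FR2 to FR3 Klrg1- the difference was 0.22 ± 0.13 (95% interval -0.06 to 0.50, adjusted p = 0.476, limma). The call between FR1 and FR2 was lost without any 1 of the 4 arrays of these groups (adjusted p from 0.122 to 0.189) and without FR3 Klrg1- replicate 1 or 2 (0.0536 each, limma). On the arrays of the other set Entpd1 was at 9.08 and 9.04 in FR3 Klrg1- and at 9.61 in FR3 Klrg1+, a difference of 0.55 ± 0.16 that did not pass (adjusted p = 0.0612, limma). An intensity trend (adjusted p = 0.032), leaving out dim genes (0.0328) or quantile normalization (0.0229) brought it past the threshold.

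Lrrc32, the TGF-beta anchor, did not pass at the CD62L or the CD69 gate and fell at the Klrg1 gate. FR1 arrays stood at 10.38 and 10.54, FR2 at 10.49 and 10.35, and FR3 Klrg1- replicates 1 and 2 at 10.61 and 10.51. These levels overlapped between FR1 and FR2, and the differences were -0.04 ± 0.13 at the CD62L gate (95% interval -0.32 to 0.24) and 0.14 ± 0.13 at the CD69 gate (-0.14 to 0.42, adjusted p = 0.93 and 0.718, limma). At the Klrg1 gate Lrrc32 fell, from 7.73 and 7.88 on FR3 Klrg1- replicates 3 and 4 to 6.82 on the FR3 Klrg1+ array. The change of -0.98 ± 0.16 took the level to 0.506 of that in FR3 Klrg1- (adjusted p = 0.00326, limma) and ranked 135 from the bottom of all genes.

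The level of Lrrc32 also differed between the array sets within FR3 Klrg1-. It was higher by 2.76 ± 0.13 on replicates 1 and 2 than on replicates 3 and 4, a 6.75-fold difference that ranked 26 from the top of all genes (adjusted p = 1.8e-09, limma). Under the same label 4 of the 6 genes were higher on replicates 1 and 2, against 19.3% of all genes higher and 18.9% lower. Besides Lrrc32 and Il10 these were Nt5e (0.91 ± 0.14) and Ebi3 (0.69 ± 0.14), while Fgl2 (0.49 ± 0.19, adjusted p = 0.0541) and Entpd1 (-0.05 ± 0.13, adjusted p = 0.794, limma) did not pass. Fgl2 passed without FR3 Klrg1- replicate 1 (0.75, adjusted p = 0.0143) or replicate 4 (0.65, adjusted p = 0.028, limma). Of the sort markers, the transcripts of Cd69 (2.11 ± 0.18), Cd4 (1.68 ± 0.13) and Foxp3 (0.89 ± 0.15) were also higher on replicates 1 and 2. Klrg1 did not pass (-0.49 ± 0.19, adjusted p = 0.0547, limma). The sources used here do not say what separates the sets.

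**Figure D2:**
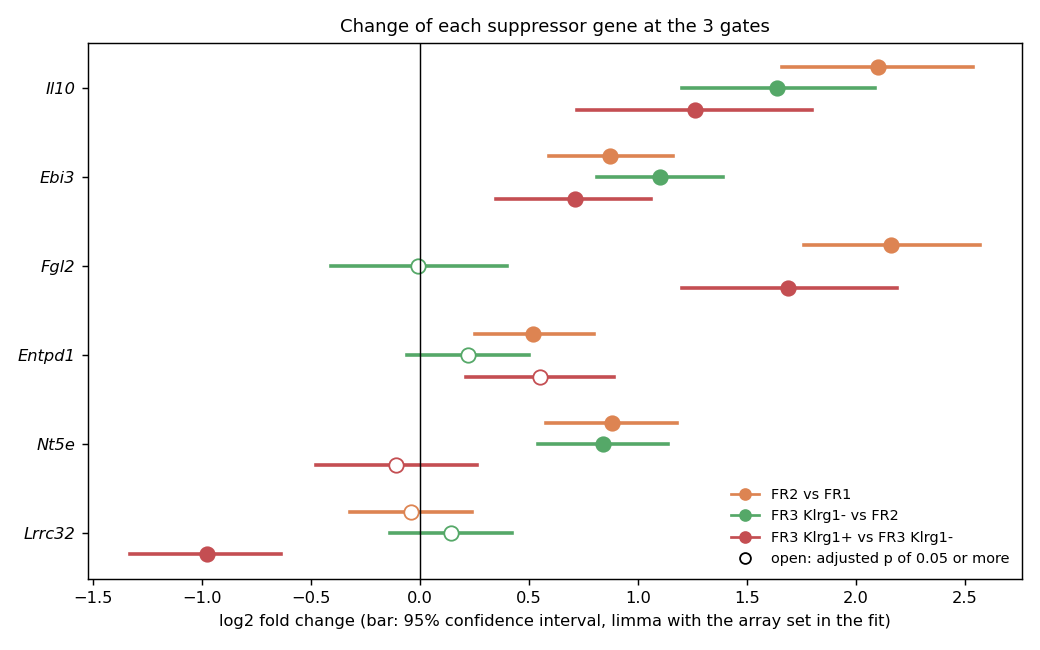
Log2 fold change (horizontal axis) of each gene at the CD62L gate (FR2 against FR1), the CD69 gate (FR3 Klrg1- against FR2) and the Klrg1 gate (FR3 Klrg1+ against FR3 Klrg1-), with 95% confidence intervals from limma; open points did not pass. Il10 and Ebi3 lie to the right of 0 at each gate, Fgl2 at the CD62L and Klrg1 gates, and Lrrc32 lies at -0.98 at the Klrg1 gate.

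The number of calls depends on fitting the array set. Without it the fold changes inside the set of FR1 and FR2 were the same, and Fgl2 alone of the 6 genes passed between FR1 and FR2 (adjusted p of the others from 0.305 to 1, limma). At the CD69 and Klrg1 gates 0 of 6 then passed, and from FR1 to FR3 Klrg1- 4 of 6 did.

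Of 13 measured genes that are known to regulate Il10 transcription, 7 were higher in FR2 than in FR1, 0 were lower and 6 did not pass. Their median was 0.64 against 0.02 for all genes, of which 1.96% were called higher and 2.3% lower. The list was not split by whether a gene raises or lowers Il10 transcription, and their part in the changes of Il10 was not tested. The transcription factor Maf rose by 1.72 ± 0.14, Prdm1 (Blimp-1) by 1.41 ± 0.21 and the aryl hydrocarbon receptor Ahr by 1.11 ± 0.15. At the CD69 gate 5 rose and 0 fell (median 0.17), against 2.81% of all genes called higher and 1.94% lower. Bcl6 (1.39 ± 0.17), Bhlhe40 (1.34 ± 0.17) and the AP-1 factor Batf (0.97 ± 0.13) led. Maf and Ahr changed more at the CD62L gate than at the CD69 gate (difference -1.62 ± 0.24, adjusted p = 0.00187, and -1.27 ± 0.26, adjusted p = 0.0169, limma), and Bcl6 did the opposite (1.75 ± 0.29, adjusted p = 0.00522). At the Klrg1 gate, where 2.14% of all genes were called higher and 2.82% lower, Gata3 (1.33 ± 0.16), Prdm1 (1.27 ± 0.26) and Ahr (1.13 ± 0.18) rose. The other 2 of the list that changed there were Hif1a and Bcl6, named after their values were seen, which fell by 0.82 and 0.78 (adjusted p = 0.0139 and 0.0448, limma). The differences between the gates were lost without FR2 replicate 1 for Bcl6 (adjusted p = 0.213) and Maf (0.0712), and for Ahr without FR1 replicate 1, either FR2 array or FR3 Klrg1- replicate 1 (0.064 to 0.156, limma).

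Receptors and partners of the cytokines were called in small numbers, to be read against the 4.26%, 4.75% and 4.96% of all genes called at the CD62L, CD69 and Klrg1 gates. Of 6 measured genes of the IL-10 receptor and its signalling, Il10ra was the 1 that rose in FR2 (0.72 ± 0.15, adjusted p = 0.012) and in FR3 Klrg1+ (0.94 ± 0.18, adjusted p = 0.00949, limma). None of the 6 passed at the CD69 gate (limma, 0 at an unadjusted p under 0.05). Among 9 measured partners and receptors of the IL-12 family, Il23r (0.85 ± 0.14) and Il12rb1 (0.58 ± 0.14) rose in FR2, and 0 passed at the CD69 gate (limma, 0 at an unadjusted p under 0.05). Il12a, the IL-35 partner of Ebi3 and named for that, stayed between group means of 5.77 and 5.83 in FR1, FR2 and FR3 Klrg1- replicates 1 and 2. This was below the median of all probe sets on those arrays (6.15 to 6.24). Il27, the IL-27 partner and named for that, was above it, at 7.04, 7.20 and 7.17. On FR3 Klrg1- replicates 3 and 4 and on FR3 Klrg1+, Il12a stood at 5.62 and 6.08 and Il27 at 7.08 and 7.42. Neither passed at any gate (limma). At the Klrg1 gate Il6st (gp130), a receptor chain for IL-27 and IL-35, fell by 1.37 on the log2 scale (SE 0.15, adjusted p = 0.000145, limma). The calls in FR2 were lost without FR1 replicate 1 or either FR2 array for Il10ra (0.0842 to 0.137), without FR1 replicate 2 or FR2 replicate 1 for Il23r (0.0592 and 0.0612), and without any 1 array of FR1 or FR2 for Il12rb1 (0.123 to 0.228, limma).

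Of 8 genes of the fibrinogen family and of Fc receptors, 0 passed at the CD62L or the CD69 gate (limma, 0 at an unadjusted p under 0.05 in either), and Fcgr1 rose in FR3 Klrg1+ (0.68 ± 0.17, adjusted p = 0.0342). Fcgr1 is also the 1 macrophage and monocyte marker that rose at that gate. Its level was 5.53 on FR3 Klrg1- replicates 3 and 4 and 6.20 in FR3 Klrg1+, below the array medians. It did not pass in a fit of that array set alone or with array weights (0.68 each, limma). Of 17 measured genes of nucleotide and adenosine handling, 1 changed between FR1 and FR2, a share near the 4.26% of all genes: Ada, which breaks down adenosine, fell by 0.71 (SE 0.13, adjusted p = 0.00423, limma). At the CD69 gate, where 4.75% of all genes were called, the nucleoside transporter Slc29a1 rose (1.03 ± 0.13) and the nucleoside diphosphatase Entpd5 fell (-0.69 ± 0.15). In FR3 Klrg1+, where 4.96% of all genes were called, Dpp4, which binds adenosine deaminase in other species, and Slc29a1 fell by 0.87 and 0.60. Of 5 measured nucleotide receptor genes (P2rx1, P2rx4, P2rx7, P2ry10 and P2ry14) 0 passed at the CD62L gate (2 at an unadjusted p under 0.05) and 0 at the CD69 gate (limma, 0 at an unadjusted p under 0.05). P2ry14, a receptor of UDP-sugars, rose in FR3 Klrg1+ (0.90 ± 0.18, adjusted p = 0.0121, limma). The adenosine receptor genes Adora1, Adora2a, Adora2b and Adora3 were listed but were not among the genes with a probe set of a single symbol. Calls were lost for Fcgr1 without FR3 Klrg1- replicate 1, 2 or 4 (adjusted p = 0.0568 to 0.0581), for Ada without FR1 replicate 2 (0.0508), and for Entpd5 without FR2 replicate 2 or FR3 Klrg1- replicate 1 or 2 (0.0525 to 0.202, limma). The call of Slc29a1 in FR3 Klrg1+ was lost without any 1 array of FR1, FR2 or FR3 Klrg1- except FR3 Klrg1- replicate 3 (-0.60 to -0.51, limma). It was also lost in a fit of the array set of FR3 Klrg1+ alone and with array weights (-0.60 each, limma).

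Itgb8 and Itgav, the chains of the integrin that releases TGF-beta, rose at both the CD62L and the CD69 gate, where the anchor Lrrc32 did not pass. Of all genes, 4.26%, 4.75% and 4.96% were called at the CD62L, CD69 and Klrg1 gates. Of 15 measured ligands, anchors and activators, 3 were higher and 1 lower in FR2 (median 0.25). Itgb8 rose by 1.22 ± 0.13, Itgav by 0.86 ± 0.15 and the protease Mmp14 by 0.82 ± 0.17, while Nrros, the related anchor of myeloid cells and named after its value was seen, fell by 0.48. At the CD69 gate Itgb8 (1.68 ± 0.13) and Itgav (0.69 ± 0.15) rose again. Tgfb1, the ligand that GARP holds and named for that, differed by 0.24 ± 0.15 at the CD62L gate and -0.01 ± 0.15 at the CD69 gate (adjusted p = 0.467 and 0.992, limma). In FR3 Klrg1+, where Lrrc32 fell, 0 of these 15 genes passed (limma, 3 at an unadjusted p under 0.05), and Tgfb1 differed by 0.10 ± 0.18. Between the array sets Tgfb1 was higher by 1.99 ± 0.15 on FR3 Klrg1- replicates 1 and 2, as were Lrrc32 and 19.3% of all genes, with 18.9% lower. Whether the differences of Tgfb1 and Lrrc32 are linked was not tested. Of 11 TGF-beta receptor and SMAD genes, Tgfbr3 fell in FR2 (-0.57 ± 0.14) and in FR3 Klrg1+ (-0.78 ± 0.18), and Skil rose at the CD69 gate (0.54 ± 0.15). With quantile normalization Tgfbr3 in FR2 (-0.49, adjusted p = 0.0661) and Skil at the CD69 gate (0.48, adjusted p = 0.0949, limma) did not pass. Leaving out 1 array ended the call of Mmp14 in FR2 (without FR1 replicate 2 or either FR2 array, adjusted p = 0.0855 to 0.163) and of Itgav at the CD69 gate (without any 1 array of FR2 or FR3 Klrg1- replicates 1 and 2, 0.0662 to 0.141, limma). It also ended those of Tgfbr3 in FR2 (without any 1 array of that set except FR1 replicate 1, 0.0555 to 0.356) and of Skil (without any 1 array of that set, 0.0602 to 0.357, limma).

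Among 25 measured genes of other suppressor routes, 8 rose and 2 fell in FR2 (median 0.35), and 8 rose and 2 fell at the CD69 gate (median 0.17). Of all genes, 1.96% were called higher and 2.3% lower at the CD62L gate, and 2.81% and 1.94% at the CD69 gate. The shares at the Klrg1 gate were 2.14% and 2.82%. The receptor Tigit (2.07 ± 0.17), the protease Gzmb (1.56 ± 0.15) and Icos (1.48 ± 0.16) led at the CD62L gate, and the decoy receptor Il1r2 (2.51 ± 0.18), Cd83 (1.89 ± 0.13) and Lag3 (1.40 ± 0.15) at the CD69 gate. Gzmb had a mean of 5.01 in FR1, below the medians of those arrays (6.15 and 6.19). Whether Gzmb was above background there was not tested. In FR3 Klrg1+ 5 rose and 0 fell, led by Gzmb (1.85 ± 0.18), the receptor Havcr2, or TIM-3 (1.19 ± 0.15), and Tigit (0.88 ± 0.21). As for Fgl2, the change of Gzmb at the CD69 gate was below that at the CD62L gate (difference -2.01 ± 0.26, adjusted p = 0.00069, limma).

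**Figure D3:**
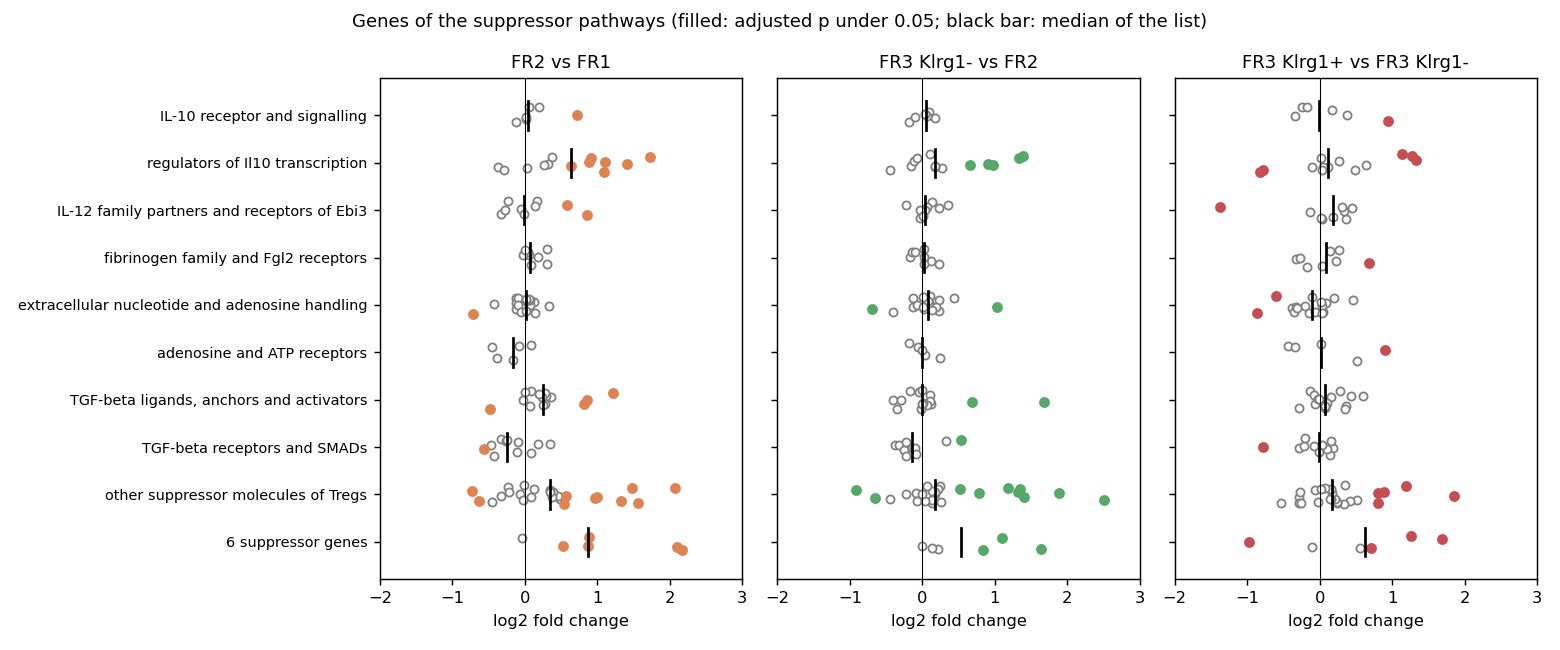
Log2 fold change (horizontal axis) of the measured genes of each suppressor pathway at the CD62L, CD69 and Klrg1 gates, a point per gene, filled where the adjusted p was under 0.05, with a black bar at the median of the list. The 6 suppressor genes have medians of 0.88, 0.53 and 0.63, and the regulators of Il10 transcription 0.64, 0.17 and 0.12.

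The genes whose pattern was most like that of each suppressor gene were found by Pearson's r over the 9 grouped arrays, each set centred on its FR3 Klrg1- mean. For Il10 they were Ccrl2 (0.996), the TNF receptor Tnfrsf1b (0.994) and Tigit (0.993), and for Ebi3 Adgrd1 (0.997), the BH3-only gene Pmaip1 (0.997) and the adaptor Sla (0.995). For Fgl2 they were the small GTPase Rab19 (0.992), Cass4 (0.989) and Nav2 (0.988). Entpd1 was closest to Lilr4b (0.996), Mapre2 (0.991) and the kinase Stk40 (0.989), and Nt5e to Poglut2 (0.997), Naip6 (0.994) and Naip5 (0.992). For Lrrc32 they were the kinase Mapk9 (0.988), Nop9 (0.978) and Terf2ip (0.972). With 17097 genes searched over 9 arrays that share groups and sets, these are a description with no test.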

How the data were processed

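Gene expression was measured on Affymetrix Mouse Gene ST 1.0 arrays from 20 to 50 ng of amplified RNA, per the labels' protocols. The authors deposited 1 table of RMA values on the log2 scale, per the submitters' processing notes and the range of the values. The version of RMA, the genome build and whether all arrays were normalized together are not given in the sources used here. Of 35556 probe sets, the platform's probe table gave a single symbol for 21789, more than 1 for 1621 and no entry for 12146. A gene was represented by its brightest probe set on average across grouped arrays.

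Comparisons used limma 3.58.1 in R 4.3.3, with terms for group and array set, fitted to 9 arrays, and p-values adjusted by Benjamini-Hochberg across 19938 genes at a threshold of 0.05. This was tested on simulated data. A percentile is a rank among all probe sets of an array. The members, lists, array sets and tests were chosen with earlier results of these data known, and the motifs after the values were seen. Besides the 6 genes, up to 3 genes per list and comparison with the largest change past the threshold were named, and the 3 genes most like each member. Predicted genes, receptor segments, olfactory genes and small RNAs were left out of the last step. Promoter sequences are RefSeq's. Sequences of proteins and probes were not used here.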

Additional observations from a re-analysis of the deposited data

How the results depend on the processing

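The 6 genes and the counts of all genes were recomputed with limma under each setting. Of the values of single members under an alternative, 509 kept their direction and their side of the threshold, 22 lost the call, 7 gained it and 14 changed sign. In part of the settings the fold change of a member was fixed, and only its p-value could move. These included the mean of all probe sets (each member has 1), the intensity trend and a fit of 1 set alone. Leaving out an array that a comparison does not use was another. The 509 is therefore not a count of independent checks. Without the array set as a term, 1, 0 and 0 of the 6 genes passed for FR2 against FR1, FR3 Klrg1- against FR2 and FR3 Klrg1+ against FR3 Klrg1-, and 0 for the difference between the CD69 and CD62L steps. The counts over all genes were then 52, 55, 22 and 9, and 439 for FR3 Klrg1- against FR1. In that fit Lrrc32 turned to -1.24 (FR3 Klrg1- against FR2), -1.28 (against FR1) and -1.20 (difference of steps), and Ebi3 to -0.12 for the difference of steps. These fits set FR3 Klrg1- replicates 3 and 4 against arrays of the other set. Asking for a log2 fold change of at least 1 left 2 of the 6 genes for FR2 against FR1, 2 for FR3 Klrg1+ against FR3 Klrg1- and 2 between the array sets. It left 158 genes for FR2 against FR1, 145 for FR3 Klrg1- against FR2, 429 for FR3 Klrg1- against FR1, 212 at the Klrg1 gate and 2063 between the sets. For FR2 against FR1, 850 genes became 1331 in a fit of 1 set alone and 1401 without dim genes. Array weights raised FR3 Klrg1- against FR2 from 948 to 1618. The difference of steps went from 533 to 893 (1 set alone), 871 (intensity trend), 939 (no dim genes) and 948 (array weights). Quantile normalization gave 0.03 for Lrrc32 in FR2 against FR1.

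Leaving out 1 array at a time, the genes called ranged from 253 to 1331 (FR2 against FR1), 302 to 1318 (FR3 Klrg1- against FR2), 910 to 2063 (FR3 Klrg1- against FR1), 721 to 1553 (Klrg1 gate) and 62 to 893 (difference of steps). The members called for the difference of steps were 0 to 1. Among uncalled values that changed sign, Lrrc32 ran from -0.12 to 0.04 (FR2 against FR1) and Fgl2 from -0.27 to 0.25 (FR3 Klrg1- against FR2). For the difference of steps Ebi3 ran from -0.00 to 0.45 and Nt5e from -0.21 to 0.13. Entpd1 between the sets ran from -0.13 to 0.03. Apart from the settings named here, the cause of these shifts was not tested.

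With the replicate number as a block (replicate block, 6 arrays of the set with FR1) no call of a member changed, and the genes called were 1669 (FR2 against FR1), 1586 (FR3 Klrg1- against FR2) and 1187 (difference of steps). Deviations of same-numbered arrays from their group means correlated at 0.18, 0.14 and 0.02. With 2 arrays per group these values cannot show whether same-numbered arrays were paired. The main fit treated them as unpaired. No paired analysis was possible for FR3 Klrg1+ because it shares 1 replicate number with FR3 Klrg1-. Of 57 pairs of a named list gene and a comparison between groups, 56 kept their direction in every setting (Skil, at -0.31 without the array set, did not), 39 passed in every setting with the array set and 13 without it. For the difference of steps, 8 named list genes kept their direction in every setting, and 2 of them (Gzmb and Tnfrsf4) passed in every setting with the array set.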

Other observations

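The array titled FR3 with the marker text of FR1 was placed in no group. It correlated at 0.973 to 0.975 with the arrays of FR3 Klrg1- replicates 3 and 4 and FR3 Klrg1+, and at 0.904 to 0.917 with the others. On it Il10 stood at 9.90, Ebi3 at 9.03, Fgl2 at 9.78, Entpd1 at 9.53, Nt5e at 10.17 and Lrrc32 at 7.20 (log2). The FR3 Klrg1+ array read 9.66, 8.83, 9.53, 9.61, 10.28 and 6.82 for the same genes, and the means of FR3 Klrg1- replicates 3 and 4 were 8.40, 8.13, 7.84, 9.06, 10.39 and 7.81. Klrg1 was at 12.41 on it and Foxp3 at 9.85.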
